A study of Mus musculus with 2 samples.

Results

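The miR-200 family consists of 5 miRNA genes in 2 genomic clusters, Mir200c and Mir141 on chromosome 6 and Mir200b, Mir200a and Mir429 on chromosome 4. The members were chosen by name, and all 5 were found among the 2202 miRNA genes counted by microRNA-seq in the adrenal gland. Total RNA came from 2 samples of female B6CASTF1/J mice, the first-generation hybrid of a B6 and a CAST parent, at 2 months of age. The labels give a size range below 30. The labels name no treatment, no mutation and no other group, so there was no contrast between conditions. Both samples carry 1 donor label and differ in the animal number of their tissue label. That they are 2 animals rests on this number only, so an SD over the replicates may in part be technical. The mRNAs of steroid enzymes that define the gland are not measured by this assay, so the tissue label was not checked against them.

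miR-200 miRNAs are known from epithelial cells, where they repress the transcription factors Zeb1 and Zeb2 and so help to keep the adhesion gene Cdh1 on. Zeb1 and Zeb2 in turn repress both miR-200 clusters, and the loop is best known from the transition between epithelial and mesenchymal states. A miRNA finds its targets mainly through its seed, bases 2 to 8 from the 5′ end, and the adrenal cortex and medulla are not lining epithelia of the kind in which the family is most abundant.

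The family falls into seed groups that cut across the clusters, and the 3p arms are shown because they carry these seeds, in capitals (RefSeq, GRCm38.p6).
miR-200c-3p: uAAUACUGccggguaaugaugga
miR-200b-3p: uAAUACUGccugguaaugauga
miR-429-3p: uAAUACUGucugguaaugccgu
miR-141-3p: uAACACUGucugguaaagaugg
miR-200a-3p: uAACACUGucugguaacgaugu
Mir200c, Mir200b and Mir429 share the seed AAUACUG, whose complement in a target is CAGUAUU, and Mir141 and Mir200a share AACACUG, with the complement CAGUGUU. The seeds differ by U4C (positions counted from the 5′ end of the arm, the AAUACUG group's base first). Each chromosome thus carries both seeds. Of 1738 mature arms in the RefSeq table, 3 carried AAUACUG and 2 carried AACACUG, all of them from the family. Across the clusters the arms of Mir200b and Mir200c differed at 2 positions, U11G and A22G, and that of Mir200c is 1 base longer. Those of Mir200a and Mir141 also differed at 2, C17A and U22G. Within the chromosome 4 cluster Mir200b and Mir429 differed at 4 positions, none of them in the seed.

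Reads were counted per hairpin, so the hairpins are the units behind every value below, and their 2 annotated mature arms, which the counts do not tell apart, are in capitals.
Mir200c: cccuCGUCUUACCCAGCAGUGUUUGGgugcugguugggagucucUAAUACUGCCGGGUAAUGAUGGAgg
Mir141: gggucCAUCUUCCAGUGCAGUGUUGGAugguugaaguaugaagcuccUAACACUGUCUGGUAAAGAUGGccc
Mir200b: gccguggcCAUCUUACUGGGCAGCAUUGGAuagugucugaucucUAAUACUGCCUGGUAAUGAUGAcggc
Mir200a: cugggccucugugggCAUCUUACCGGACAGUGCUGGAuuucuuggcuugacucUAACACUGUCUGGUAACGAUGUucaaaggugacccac
Mir429: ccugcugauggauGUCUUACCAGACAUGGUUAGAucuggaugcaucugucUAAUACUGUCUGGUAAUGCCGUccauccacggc
The longest stretch that any of them shares with another of 1005 mouse hairpins is 17 bases, between Mir200a and Mir141, which is shorter than their arms of 22 bases. For Mir200b and Mir200c it is 14 bases, with each other, and for Mir429 it is 12 bases. Full-length reads of the arms therefore differ in exact sequence between all members. A read cut back to such a shared stretch could align to more than 1 place and be left uncounted. Only exact matches among hairpins were searched and the aligner is not given, so unique assignment was not established.

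All 5 hairpins lie on the minus strand (mm10, GENCODE M21). Mir200c (ENSMUSG00000065462.3, chr6:124718322-124718390) comes first in the direction of transcription, and Mir141 (ENSMUSG00000065474.1, chr6:124717914-124717985) follows after 336 bases. Both lie in an intron of the noncoding transcript Gm15884, and 31 bases of Mir141 also fall in the single-exon model Gm29008. Mir200b (ENSMUSG00000065549.3, chr4:156055681-156055750) leads the other cluster, with Mir200a (ENSMUSG00000065400.1, chr4:156054896-156054985) 695 bases downstream and Mir429 (ENSMUSG00000065427.1, chr4:156053905-156053987) a further 908 bases on. Mir200b and Mir200a are intronic in the noncoding transcript Gm13648, Mir429 lies whole in its exon 2, and all 3 are also intronic in 2 transcripts of the coding gene Ttll10. The clusters span 477 bases on chromosome 6 and 1846 bases on chromosome 4.

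**Figure D1:**
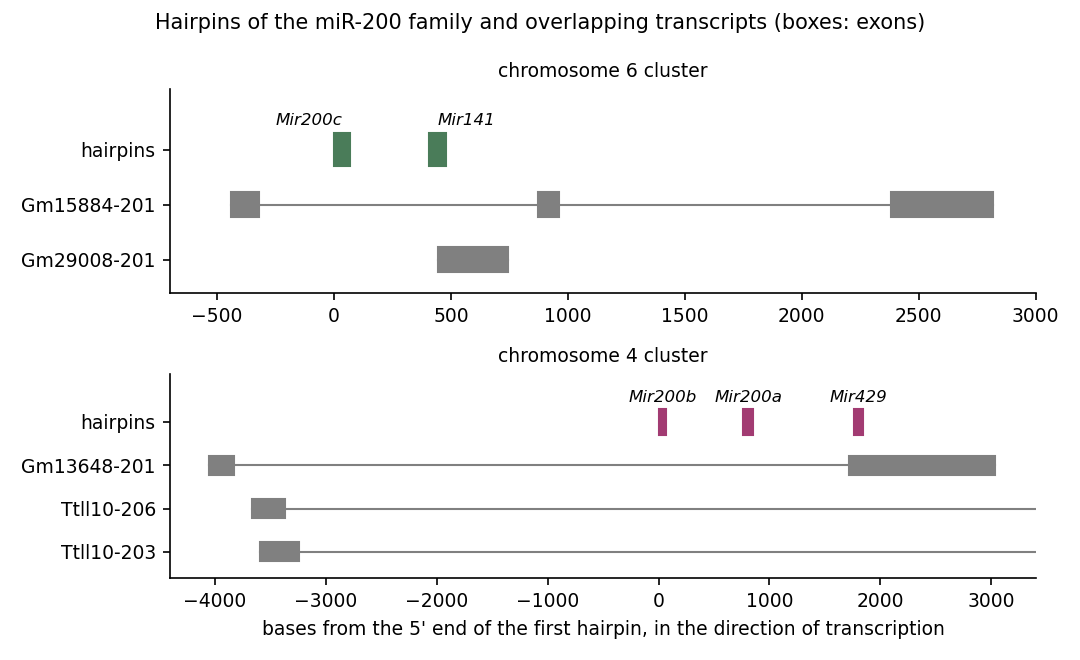
Hairpins of both clusters (coloured boxes) and the annotated transcripts that overlap them on the same strand (grey boxes are exons, lines are introns), in bases from the 5′ end of the first hairpin. The chromosome 6 pair lies 336 bases apart, and the chromosome 4 hairpins are separated by 695 and 908 bases; the Ttll10 transcripts run on beyond the right edge.

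Counts on the strand of the genes totalled 2839732 in replicate 1 and 2280028 in replicate 2, and levels are given as counts scaled to a total of 1000000 per library (CPM). In replicate 1, 1 count equals 0.352 CPM, and in replicate 2 it equals 0.439 CPM. A count of 0 would allow up to 3 counts, or 1.06 and 1.32 CPM. No member had a count on the opposite strand.

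The miR-200 family was a minor part of the adrenal profile in both libraries. Its 5 genes together had 279 counts in replicate 1 and 105 in replicate 2. That was 0.00982% of the gene counts in replicate 1 (exact Clopper-Pearson 95% interval 0.00871 to 0.0110) and 0.00461% in replicate 2 (0.00377 to 0.00557). The family averaged 72.2 ± 36.9 CPM (SD, n = 2). All intervals given here come from the counts alone, so they cover counting error only. The reads carry no stated molecular identifiers.

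Mir200c, the first hairpin of the chromosome 6 cluster, was the most abundant member in each library. It had 110 counts (38.7 CPM) in replicate 1 and 77 counts (33.8 CPM) in replicate 2, a mean of 36.3 ± 3.51 CPM. The libraries were close to each other, with a ratio of replicate 1 over replicate 2 of 1.15 (95% interval 0.849 to 1.56). By mean CPM it ranked 239 of 2202 genes, between Mir365-2 at 36.7 ± 2.08 CPM and Mir495 at 36.2 ± 0.342 CPM.

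Mir141, its neighbour with the other seed, was far lower in both libraries. It had 14 counts (4.93 CPM) in replicate 1 and 11 counts (4.82 CPM) in replicate 2, a mean of 4.88 ± 0.0746 CPM. Its ratio was 1.02, but with so few counts the interval ran from 0.431 to 2.49, so a difference of 2-fold in either direction could not be detected at this depth. Within the cluster Mir200c exceeded Mir141 by 7.86-fold in replicate 1 (4.49 to 14.8) and by 7.00-fold in replicate 2 (3.70 to 14.6). The ratio of these ratios, replicate 1 over replicate 2, was 1.12 (0.436 to 2.82), so no change in the imbalance was detectable, and one of over 2-fold in either direction lies within the interval. Mir200c held 88.7% of the cluster's counts in replicate 1 and 87.5% in replicate 2.

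Mir200b, the chromosome 4 hairpin nearest to Mir200c in sequence, differed strongly between the libraries. It had 99 counts (34.9 CPM) in replicate 1 and 8 counts (3.51 CPM) in replicate 2. In replicate 1 its counting interval, 28.3 to 42.4 CPM, overlapped that of Mir200c, 31.8 to 46.7 CPM. In replicate 2 it lay below, at 1.51 to 6.91 CPM against 26.7 to 42.2 CPM for Mir200c. The ratio of replicate 1 over replicate 2 was 9.94 (4.85 to 23.7). Its mean of 19.2 ± 22.2 CPM stands for neither library.

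Mir429, which has the same seed as Mir200b, had 37 counts (13.03 CPM) in replicate 1 and 5 counts (2.19 CPM) in replicate 2. The ratio was 5.94 (2.33 to 19.4). Mir200a, with the seed of Mir141, had 19 counts (6.69 CPM) in replicate 1 and 4 counts (1.75 CPM) in replicate 2. Its ratio was 3.81 (1.27 to 15.4). All 3 chromosome 4 hairpins were therefore higher in replicate 1, and the 4 and 5 counts in replicate 2 stood just above the 3 counts that a count of 0 would allow.

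**Figure D2:**
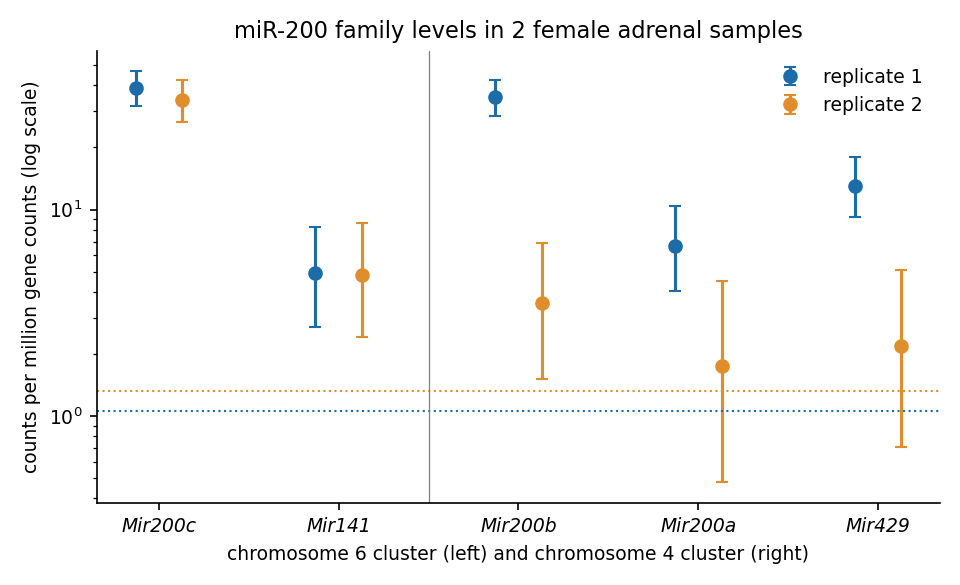
CPM of each miR-200 gene (log axis) in replicate 1 (blue) and replicate 2 (orange), with exact 95% Poisson intervals as bars and dotted lines at the level of 3 counts in each library. Mir200c and Mir141 have nearly the same level in the 2 libraries, while Mir200b, Mir200a and Mir429 are 3.81 to 9.94 times higher in replicate 1.

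The order of the levels differed between the libraries. In replicate 1 it ran Mir200c, Mir200b, Mir429, Mir200a, Mir141, and in replicate 2 Mir200c, Mir141, Mir200b, Mir429, Mir200a. In replicate 1 the intervals of Mir200c and Mir200b overlapped, as did those of Mir429 and Mir200a and those of Mir200a and Mir141. In replicate 2 the intervals of all members other than Mir200c overlapped. By mean CPM Mir141, at rank 348, and Mir200a, at rank 362, could not be ordered beyond their spread, since Mir200a was at 4.22 ± 3.49 CPM. Mir200b at rank 273 and Mir429 at rank 326, at 7.61 ± 7.66 CPM, had SDs larger than their means.

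The genes next to the 3 chromosome 4 members in mean CPM had smaller SDs than they did, as had those next to Mir200c, while those next to Mir141 had larger ones. Mir200b stood between Mir302d (19.4 ± 6.04 CPM) and Mir3067 (19.1 ± 9.58 CPM), which were both lower in replicate 1 than in replicate 2. Mir429 stood between Mir5126 (7.87 ± 1.82 CPM) and Mir7689 (7.16 ± 4.14 CPM). Mir200a lay between Mir7238 (4.26 ± 0.446 CPM) and Gm27920 (4.17 ± 0.921 CPM), while Mir141 stood between Mir5131 (4.92 ± 2.00 CPM) and Mir7655 (4.79 ± 1.19 CPM).

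Summed by cluster, the chromosome 6 genes had 124 counts (43.7 CPM) in replicate 1 and 88 counts (38.6 CPM) in replicate 2, a mean of 41.1 ± 3.59 CPM. Their ratio of replicate 1 over replicate 2 was 1.13 (0.854 to 1.504). The chromosome 4 genes had 155 counts (54.6 CPM) in replicate 1 and 17 counts (7.46 CPM) in replicate 2, a mean of 31.0 ± 33.3 CPM. Their ratio was 7.32 (4.43 to 12.9). The clusters' intervals do not overlap.

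The relation between the clusters within a library does not depend on how the libraries are scaled. The chromosome 6 cluster had 0.8 counts for each count of the chromosome 4 cluster in replicate 1 (0.627 to 1.02) and 5.18 in replicate 2 (3.06 to 9.28). The ratio of replicate 1 divided by that of replicate 2 was 0.155 (exact conditional 95% interval 0.0821 to 0.280). The cluster that held the larger number of counts was therefore not the same in the 2 libraries. In replicate 1, however, the interval includes 1, so which cluster was larger there was not resolved. The chromosome 6 cluster made up 44.4% of the family in replicate 1 (38.5 to 50.5) and 83.8% in replicate 2 (75.3 to 90.3).

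The closest relatives across the clusters were set against each other in the same way. Mir200c over Mir200b was 1.11 in replicate 1 (0.839 to 1.47) and 9.63 in replicate 2 (4.65 to 23.1), a ratio of ratios of 0.115 (0.0461 to 0.257). Mir141 over Mir200a was 0.737 in replicate 1 (0.342 to 1.55) and 2.75 in replicate 2 (0.815 to 11.8). There the ratio of ratios was 0.268, with an interval of 0.0525 to 1.18 that includes 1.

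Grouping by seed gave another picture. The AAUACUG genes (Mir200c, Mir200b and Mir429) had 246 counts in replicate 1 and 90 in replicate 2, and the AACACUG genes (Mir141 and Mir200a) had 33 and 15. AAUACUG genes exceeded AACACUG genes by 7.45-fold in replicate 1 (5.17 to 11.1) and by 6-fold in replicate 2 (3.45 to 11.2). The ratio of ratios was 1.24 (0.597 to 2.48), so no difference in the balance of seeds was detectable at this depth, and one of up to 2.48-fold lies within the interval. These are hairpin counts, in which reads of the 5p arms may be included.

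**Figure D3:**
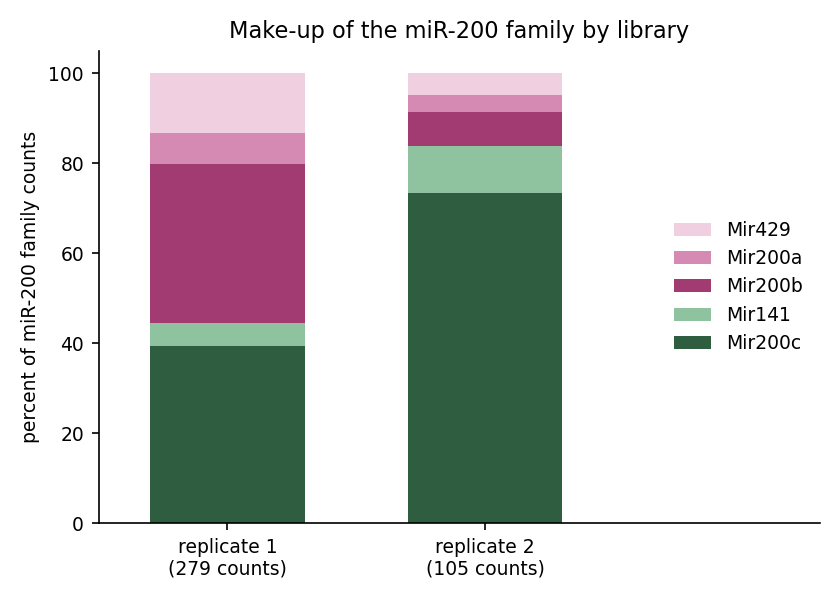
Share of each gene in the miR-200 family's counts, in percent, for replicate 1 (left, 279 counts) and replicate 2 (right, 105 counts); greens are the chromosome 6 genes and purples the chromosome 4 genes. The green part is 44.4% in replicate 1 and 83.8% in replicate 2.

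Within the chromosome 4 cluster the 3 hairpins could not be told apart in their ratios. Mir200b made up 63.9% of the cluster in replicate 1 (55.8 to 71.4) and 47.1% in replicate 2 (22.98 to 72.2). Mir200b over Mir200a was 5.21 in replicate 1 and 2.00 in replicate 2, a ratio of ratios of 2.61 (0.516 to 10.9). For Mir200b over Mir429 it was 1.67 (0.402 to 6.22), and for Mir429 over Mir200a 1.56 (0.274 to 8.15). Mir200b ranked above Mir429 and Mir429 above Mir200a in both libraries.

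The members' ratios were placed among those of all genes as a description. Of 369 genes whose counts averaged at least 10, 10.3% were at least 2-fold higher in replicate 1 and 8.67% at least 2-fold higher in replicate 2. All 5 miR-200 genes passed this filter, as did 369 of all 2202 genes. Mir200b, Mir200a and Mir429 were at least 2-fold higher in replicate 1, and Mir200c and Mir141 were within 2-fold. The 3 chromosome 4 genes had fewer than 10 counts in replicate 2, so Mir200a in particular, with a mean count of 11.5, passed through its counts in replicate 1. With 4 counts for Mir200a and 5 for Mir429 in replicate 2, either gene could pass only at a ratio above 2. That both were at least 2-fold higher in replicate 1 was thus fixed by the filter. Such counts over the members describe them and support nothing. Among the 246 genes with mean counts of 10 to 1000, where all members lie, 12.2% were at least 2-fold higher in replicate 1.

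A ratio at least as large as that of Mir200b was found in 7 of the 369 genes, Mir200b included, or 1.90%. For Mir429 the number was 9 (2.44%) and for Mir200a 13 (3.52%), while it was 125 (33.9%) for Mir200c and 161 (43.6%) for Mir141. The high places of Mir429 and Mir200a were in part set by the filter, which they could pass only at ratios above 2. Since the chromosome 4 genes reached the filter through replicate 1, the 342 genes with 10 or more counts in both libraries were also counted, which hold Mir200c and Mir141 but no chromosome 4 gene. Of these, 7.31% were at least 2-fold higher in replicate 1, and 1, 2 and 4 genes had ratios as large as those of Mir200b, Mir429 and Mir200a. This set leaves out genes low in either library and so loses large ratios. It makes the chromosome 4 genes, which fail its rule, look rarer, so these numbers do not correct for the first filter. The interval lay wholly above 2 for Mir200b and Mir429 but not for Mir200a, and it did so in 5.96% of all genes. The log2 ratios were 0.20 for Mir200c, 0.03 for Mir141, 3.31 for Mir200b, 2.57 for Mir429 and 1.93 for Mir200a. The median over the 369 genes, leaving out 1 with no count in replicate 2, was -0.07. With 2 samples of 1 group the smallest exact two-sided p is 0.5, so no test over samples was run, and the ratios describe these 2 libraries.

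**Figure D4:**
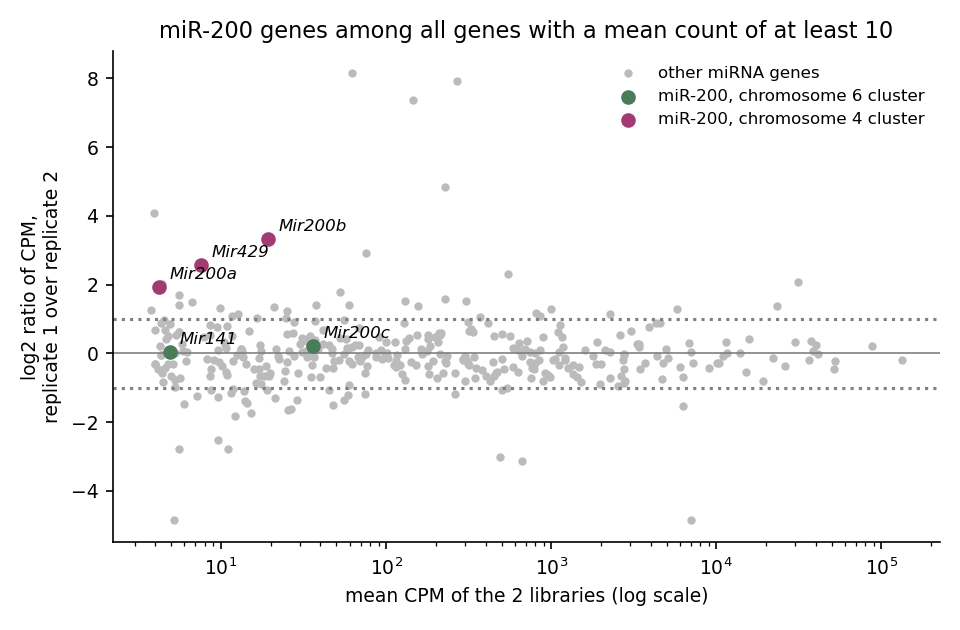
Log2 ratio of CPM, replicate 1 over replicate 2, against mean CPM (log axis) for genes whose counts averaged at least 10, leaving out any with no count in a library; dotted lines mark 2-fold. The chromosome 4 genes (purple) lie at log2 ratios of 1.93 to 3.31, above most genes of like level, and the chromosome 6 genes (green) lie at 0.20 and 0.03.

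Of all 2202 genes, 342 had at least 10 counts in both libraries. Of 9 genes on a list of skin, kidney and gut epithelial miRNAs, 5 did. Their ratios had intervals that lay below that of the chromosome 4 cluster. No chromosome 4 gene passes this filter, which leaves out genes low in either library, so the contrast is in part made by it. Of the list genes left out, Mir215 (14 and 7 counts) and Mir211 (2 and 0) had intervals that overlapped the cluster's. Those of Mir205 and Mir194-1 lay below it. Mir31 was the most abundant, at 3605 CPM (replicate 1) and 3194 CPM (replicate 2), with a ratio of 1.13 (1.095 to 1.16). Mir203, known from the differentiating epidermis, was at 1166 and 554 CPM in replicates 1 and 2, a ratio of 2.11 (1.97 to 2.25). The chromosome 4 cluster was still 3.47 times higher relative to Mir203 in replicate 1 than in replicate 2 (2.09 to 6.14).

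The kidney and gut miRNAs Mir192, Mir194-2 and Mir204 had levels much like that of the chromosome 6 cluster. Mir192 reached 31.3 CPM (replicate 1) and 30.7 CPM (replicate 2), with a ratio of 1.02 (0.738 to 1.42). Mir194-2 was at 40.5 and 37.3 CPM (ratio 1.09, 0.814 to 1.46), and Mir204 at 42.3 and 32.0 CPM (ratio 1.32, 0.979 to 1.79). The chromosome 6 cluster had 1.39 counts per count of Mir192 in replicate 1 (1.05 to 1.85) and 1.26 in replicate 2 (0.908 to 1.75), a ratio of ratios of 1.11 (0.716 to 1.71). Per count of Mir204 it had 1.03 in replicate 1 and 1.21 in replicate 2, a ratio of ratios of 0.857 (0.564 to 1.303). Mir205, another repressor of Zeb1 and Zeb2, had only 5 counts in replicate 1 and 6 in replicate 2. Over the 6 genes of the list that passed the filter of a mean count of 10, the median log2 ratio was 0.29, and 1 of them, Mir203, was at least 2-fold higher in replicate 1, against 10.3% of all genes.

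**Figure D5:**
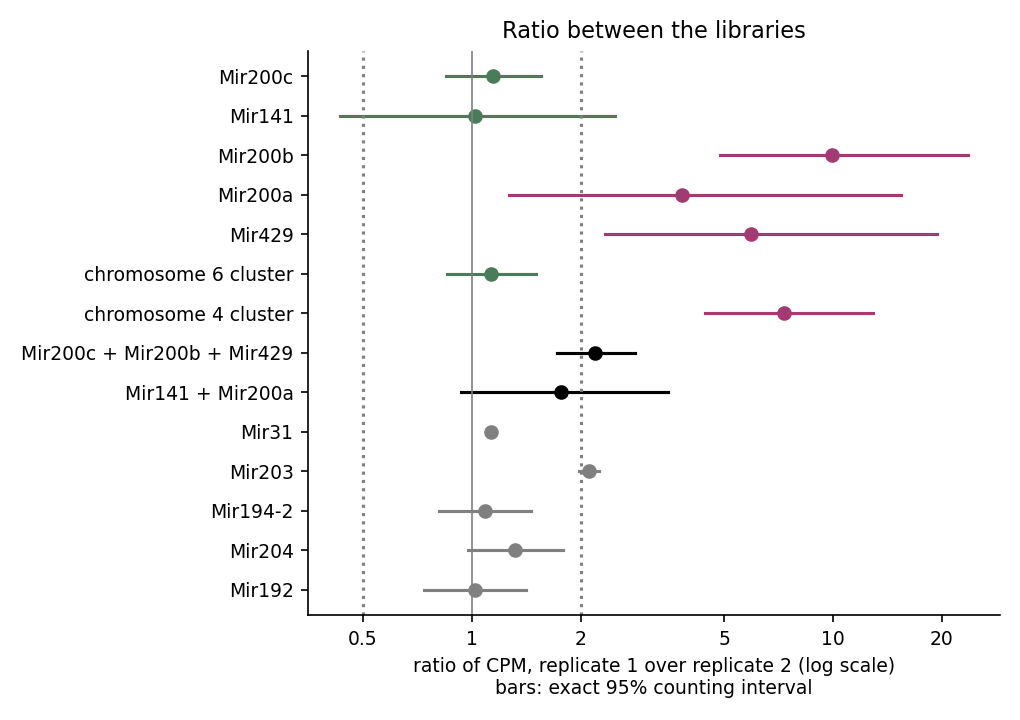
Ratio of CPM, replicate 1 over replicate 2 (log axis), with exact 95% counting intervals, for each miR-200 gene, each cluster, the genes of each seed and the 5 detected epithelial genes; dotted lines mark 2-fold. The chromosome 4 cluster lies at 7.32 and the chromosome 6 cluster at 1.13, while the epithelial genes lie between 1.02 and 2.11.

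Markers of other tissues also differed between these libraries. The 9 muscle miRNAs summed to 953 CPM in replicate 1, against 4.39 CPM in replicate 2, led by Mir206 at 534 and 2.19 CPM. Nearly all of the rest of this sum was Mir499 (288 and 1.75 CPM) and Mir208b (125 and 0.439 CPM). Mir133a-1, Mir133a-2 and Mir133b had no count in either library. Mir1a-1 had 1 count in replicate 1 and 0 in replicate 2, and Mir1a-2 had 2 and 0. Multiply aligned reads were left out, so this does not show that these miRNAs were absent. The 7 blood miRNAs summed to 1973 CPM in replicate 1, against 15539 CPM in replicate 2, a direction carried by the erythroid Mir451a (469 and 13557 CPM) and Mir144. Without this pair the other 5 blood miRNAs summed to 1397 CPM in replicate 1, against 1109 CPM in replicate 2, and the median log2 ratio over all 7 was -0.02. The liver miRNA Mir122 was at 3721 and 2358 CPM. Against this, the 7 neuroendocrine miRNAs summed to 44038 CPM in replicate 1, against 41419 CPM in replicate 2, and the 6 stromal miRNAs to 23180 and 25529 CPM. Most of the neuroendocrine sum was Mir375, at 39421 and 37780 CPM. Of the others on that list, Mir7-1, Mir7b and Mir183 were higher in replicate 1, and Mir7-2, Mir96 and Mir182 were lower. The 7 miRNAs described in steroidogenic cells, led by Mir21a, summed to 42427 CPM in replicate 1, against 24786 CPM in replicate 2. The direction of this sum was set by Mir21a. Without it the other 6 summed to 8815 CPM in replicate 1, against 11774 CPM in replicate 2. Of these 6, Mir132 (1405 and 576 CPM), Mir212 and Mir483 were higher in replicate 1, and Mir335, Mir320 and Mir503 were lower. The median log2 ratio was 0.51 over all 7 and 0.14 without Mir21a. The endothelial Mir126a had 43203 CPM in replicate 1, against 59463 CPM in replicate 2. The summed muscle miRNAs and Mir122 were thus higher in the same library as the chromosome 4 cluster. So were Mir21a, Mir132, Mir212 and Mir483, and the part of all these in the cluster's ratio was not tested. In a whole gland, fewer cells of a type and less RNA per cell cannot be told apart.

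Among 234 genes whose counts averaged at least 100, the 5 whose log2 ratio was nearest to the pooled 2.87 of the chromosome 4 cluster were compared over these 2 samples only. Mir223, a myeloid miRNA, was nearest, with 133 CPM in replicate 1, against 17.5 CPM in replicate 2, a log2 ratio of 2.92. Next came Mir487b (2.305), Mir22 (2.06), Mir380 (1.77) and Mir101a (1.57). Of the other white blood cell miRNAs on the list, Mir150 had a log2 ratio of 0.50, Mir142 one of -0.02 and Mir155 one of -0.10.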

How the data were processed

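The authors deposited a table of raw read counts per miRNA gene for each of the 2 samples; assembly mm10 and annotation GENCODE M21 are per the sample information deposited with them, and the aligner and counter are not given in the sources used here. All 2202 gene identifiers were matched to GENCODE M21. Sense counts, the single-strand column with more reads in all, were used. Rows that name no gene (unmapped, multiply aligned, outside genes, ambiguous) held 69.4% of the reads of replicate 1 and 73.7% of replicate 2 and were left out of totals.

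CPM, SDs and exact 95% intervals were computed with scipy 1.17.1 (Python 3.11.15). Only the intervals of the ratios between libraries and the 2-fold rule were tried on simulated counts. These held counting error alone, so they do not show how the intervals cover real spread between libraries. Ratios are replicate 1 over replicate 2, and their intervals come from the exact binomial of the 2 counts. No test over samples was run. Scaling alternatives used edgeR 4.0.16 (TMM) and DESeq2 1.42.0 (size factors). Sequences are from RefSeq (GRCm38.p6), matched by symbol for 5 of 5 members. Named genes were the members, their neighbours in mean CPM, the 5 genes of most similar ratio, and genes of 8 marker lists (epithelial, neuroendocrine, stromal, endothelial, muscle, blood, liver, steroidogenic). Members and lists were chosen with earlier results of these data known.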

Additional observations from a re-analysis of the deposited data

How the results depend on the processing

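The ratio of replicate 1 over replicate 2 stayed at 7.04 to 8.51 for the chromosome 4 cluster, 1.09 to 1.32 for the chromosome 6 cluster and 2.05 to 2.48 for the family over unstranded counts, TMM, median-of-ratios, totals without muscle and blood miRNAs, and all reads. Mir141 ranged from 0.983 to 1.19, so its direction is not set. Median-of-ratios and all-read scaling multiplied every ratio by 1.12 and 1.16 (log2 shifts of 0.16 and 0.22). Scaled to 1000000 reads of any kind, the family averaged 21.1 and the chromosome 6 cluster 11.8, lower because the denominator holds non-gene reads; with unstranded counts the chromosome 6 cluster averaged 47.7 CPM. Without replicate 1 or replicate 2 the family was at 46.1 or 98.2 CPM, the chromosome 6 cluster at 38.6 or 43.7, the chromosome 4 cluster at 7.46 or 54.6, and chromosome 6 over chromosome 4 at 5.18 or 0.8, where the mean of both libraries was 2.99. Of genes whose counts averaged at least 1, 17.7% were at least 2-fold higher in replicate 1 and 18.6% were so in replicate 2. For averages of at least 100, the second share was 5.13%. For genes with 10 or more counts in both libraries, a setting chosen after seeing the data, the shares were 7.31% and 7.89%. No paired analysis was possible because there is 1 group. Depth limits Mir200a most, at 19 and 4 counts, followed by Mir429 at 37 and 5, by the width of their ratios' intervals on a log scale.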

Other observations

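Hairpins that lie close together can come from 1 primary transcript. Over 113 pairs of adjacent hairpins on a strand within 10000 bases, both with counts averaging at least 10, the median absolute difference of log2 ratios between the libraries was 0.55, against 0.70 over all 67528 pairs of the same genes, which share the libraries and are not independent. Mir200c and Mir141 differed by 0.17, Mir429 and Mir200a by 0.64, and Mir200a and Mir200b by 1.38, the last with the 4 and 8 counts of replicate 2 behind it.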
